A study of Mus musculus with 2 samples.

Results

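The genes described here are 8 genes of Schwann cells and their myelin: Mbp, Pmp22, Prx, Sox10, S100b, Mag, Ncmap and Ngfr. They were chosen by name, by a rule that uses no measured value but was written with earlier results of these data known, and each symbol matched 1 of the 37315 genes counted in both libraries. The libraries came from inguinal white fat of C57BL/6 male mice, 23 weeks old, with high-fat-diet-induced obesity; 1 group received vehicle and the other entacapone. Entacapone blocks catechol-O-methyltransferase and is used in Parkinson disease; it has been described as inhibiting FTO, an RNA demethylase, as well. The sources used here give neither dose, duration nor how many mice each library came from. Whole fat holds many cell types, so fewer Schwann cells and less RNA per Schwann cell cannot be told apart.

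Schwann cells are the glia of peripheral nerves. Myelinating Schwann cells wrap single large axons in compact myelin, while non-myelinating ones hold bundles of thin axons, such as the sympathetic fibres that reach fat and drive lipolysis. Sox10 is the transcription factor that maintains the lineage, and with Egr2 it activates myelin genes. Mbp and Pmp22 encode proteins of compact myelin. Periaxin (Prx) links the outer Schwann cell membrane to dystroglycan, Mag is an adhesion protein facing the axon, and Ncmap is a small protein of non-compact myelin. S100b encodes a calcium-binding protein, and Ngfr the p75 neurotrophin receptor of immature, non-myelinating and injured Schwann cells.

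Several members are not restricted to Schwann cells, which bears on how their levels are read. Pmp22 is also made by fibroblasts and epithelia, S100b by adipocytes, Prx by endothelium, Ngfr by stromal cells, and a longer Mbp transcript family by immune cells. Sox10 also marks melanocytes and oligodendrocytes, and Mag also marks oligodendrocytes. The values below are gene totals from whole tissue, so they do not say which cell made a transcript.

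In these 2 libraries the members did not shift together. Pmp22 was 1.40-fold and Mbp 1.22-fold lower in the entacapone library, S100b differed by less than counting error, and Prx was 1.46-fold higher. The other 4 members, Sox10, Mag, Ncmap and Ngfr, had between 4 and 15 reads in a library. Of these, Mag had 15 vehicle and 4 entacapone reads. Each group held 1 library, so no difference was tested against variation between mice, and every interval is a 95% interval for counting error.

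The upstream sequences of the members with the most reads, the highest ratio and the lowest ratio are shown because the deposited counts add up all transcripts of a gene, whatever their start. RefSeq (GRCm38.p6) gave 12 windows of 250 bases before a transcription start for 6 of the members (Pmp22, Prx, Mag, S100b, Ncmap and Ngfr). Capitals mark matches, on either strand, to short cores bound by SOX factors (ACAAAG or ACAATG), EGR factors (GCGTGGG or GCGGGGG) or TEAD factors (GGAATG); no matches overlapped. The windows are printed 5′ to 3′ on the strand of the gene, at chr11:63128732-63128981, chr11:63131207-63131456 and chr11:63132319-63132568 (plus strand) for 3 of the 4 RefSeq starts of Pmp22, at chr7:27499074-27499323 (plus) for Prx, and at chr7:30914923-30915172 (minus) for 1 of the 3 starts of Mag. None of these 5 windows held an annotated exon base.
Pmp22, first start: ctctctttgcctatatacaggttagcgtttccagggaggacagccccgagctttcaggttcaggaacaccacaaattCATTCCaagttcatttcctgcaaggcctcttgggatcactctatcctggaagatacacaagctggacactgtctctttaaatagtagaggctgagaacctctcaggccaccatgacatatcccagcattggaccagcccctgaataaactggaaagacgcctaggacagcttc
Pmp22, second start: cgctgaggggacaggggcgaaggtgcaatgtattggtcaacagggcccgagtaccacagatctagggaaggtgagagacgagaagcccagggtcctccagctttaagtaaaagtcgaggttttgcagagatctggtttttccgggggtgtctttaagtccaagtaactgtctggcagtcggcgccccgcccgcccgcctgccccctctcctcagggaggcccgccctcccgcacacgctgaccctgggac
Pmp22, farthest downstream start shown: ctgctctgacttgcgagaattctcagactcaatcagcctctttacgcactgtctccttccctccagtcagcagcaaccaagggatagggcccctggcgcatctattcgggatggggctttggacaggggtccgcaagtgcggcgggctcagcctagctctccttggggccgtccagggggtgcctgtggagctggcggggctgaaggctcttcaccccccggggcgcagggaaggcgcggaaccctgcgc
Prx: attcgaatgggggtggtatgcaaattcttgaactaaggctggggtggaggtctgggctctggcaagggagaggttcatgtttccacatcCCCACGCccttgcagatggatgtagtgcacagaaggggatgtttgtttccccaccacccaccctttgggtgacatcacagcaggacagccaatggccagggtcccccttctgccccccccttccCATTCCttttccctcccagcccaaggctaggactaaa
Mag: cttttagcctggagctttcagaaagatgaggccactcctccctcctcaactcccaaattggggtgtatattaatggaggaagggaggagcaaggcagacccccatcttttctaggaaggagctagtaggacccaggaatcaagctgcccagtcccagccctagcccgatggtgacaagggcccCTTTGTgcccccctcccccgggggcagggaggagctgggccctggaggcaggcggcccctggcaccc

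The first Pmp22 window held a TEAD core beginning 173 bases before the start, and the other two held none of the cores searched. The Prx window held an EGR core (GCGTGGG, reverse strand) beginning 161 bases before its start and a TEAD core beginning 37 bases before it. The printed Mag window held a SOX core (ACAAAG, reverse strand) 67 bases before its start. Over all 12 member windows, ACAAAG was found in 2, both of Mag, whose windows overlap and share the match, ACAATG in 0, GCGTGGG in 2, GCGGGGG in 1 and GGAATG in 3. Among all 32851 windows of this length in the table, 16.5% held ACAAAG, 10.7% ACAATG, 4.30% GCGTGGG, 9.63% GCGGGGG and 12.6% GGAATG. A match is a run of letters and not a measured binding site.

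Counted reads numbered 13620056 with vehicle and 12979673 with entacapone. The limit for comparison was a mean of 1 CPM (reads of a gene scaled to library size), which 13361 genes reached. Of these, 20.2% were higher and 21.1% lower in the entacapone library beyond counting error. Every list count below is to be read beside these shares, and genes with many reads exceed counting error at smaller ratios. At a limit of 1.5-fold with an interval that excludes 1, 4.16% were higher and 7.9% lower. Pmp22, Mbp, S100b and Prx passed the 1 CPM limit; Sox10, Mag, Ncmap and Ngfr did not. Of the 4 compared members, 1 was higher and 2 lower beyond counting error, and 0 reached 1.5-fold in either direction. Over all 8, 3 ratios lay above 1 and 5 under 1. Mag, outside the compared genes, was past 1.5-fold with an interval that excluded 1, but the shares above do not cover genes under the limit. Without the 1 CPM limit, this 1.5-fold call took in 662 genes higher and 1223 lower, against 556 and 1056 with it.

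Pmp22, peripheral myelin protein 22, gave the most reads of the set. It lies on chromosome 11 (63128982 to 63159547, plus strand, GRCm38), with 5 annotated transcripts that begin at 5 different positions. The vehicle library held 1844 reads (133 CPM, interval 127 to 140) and the entacapone library 1223 reads (95.6 CPM, 90.3 to 101). The intervals of the levels did not overlap, and the entacapone value was the lower one. The log2 ratio of entacapone over vehicle was -0.48 (-0.59 to -0.38), and 12.3% of the compared genes had a lower ratio. Markers of the other cells that make Pmp22 went both ways. The summed level of 6 fibroblast and progenitor markers was 2996 CPM with vehicle and 2291 CPM with entacapone, with 5 of 6 lower beyond counting error. Keratinocyte and epithelial markers summed to 20.1 CPM with vehicle and 56.3 CPM with entacapone, with 5 of 8 higher and 0 lower beyond counting error. Their part in the Pmp22 difference was not tested.

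Mbp, myelin basic protein, which joins the cytoplasmic faces of the myelin membrane, is on chromosome 18 (82475146 to 82585637, plus strand). It stood at 773 reads in the vehicle library (56.0 CPM, 52.1 to 60.0) and 585 in the entacapone library (45.7 CPM, 42.1 to 49.6). The entacapone level was again the lower one, without overlap of the intervals, and the log2 ratio was -0.29 (-0.45 to -0.14). The gene spans 110.5 kb with 16 annotated transcripts, the short myelin forms and the longer forms that immune cells make, and the gene totals do not separate them. Macrophage markers were lower in the same library: all 5 were lower beyond counting error, and their summed level was 438 CPM against 934 CPM in the vehicle library. Their part in the Mbp difference was not tested.

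Periaxin was the member with the highest ratio. Prx, on chromosome 7 (27499324 to 27520214, plus strand), had 68 vehicle reads (4.92 CPM, 3.82 to 6.24) and 92 entacapone reads (7.19 CPM, 5.79 to 8.82). The intervals of the levels overlapped, while the interval of the log2 ratio, 0.55 (0.08 to 1.02), began just above 0. At 68 vehicle reads, 88 entacapone reads were needed for an interval above 1, so the observed 92 lay just past that limit. The antisense gene Gm15541 overlaps 300 of the 5579 exon bases of Prx and was itself counted with 8 vehicle and 7 entacapone reads. The counting mode is not given, so Prx may have gained or lost reads in the shared bases. Endothelial markers, from cells that also make Prx, had a median log2 ratio of -0.04 and summed to 762 CPM with vehicle and 740 CPM with entacapone.

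S100b did not differ between the libraries beyond counting error. The gene is on chromosome 10 (76253853 to 76261159, plus strand) and had 295 reads in the vehicle library (21.4 CPM, 19.0 to 23.9) and 275 in the entacapone library (21.5 CPM, 19.0 to 24.2). The log2 ratio was 0.01 (-0.23 to 0.25). At this depth an entacapone level 1.18-fold higher or 1.19-fold lower would have been needed for an interval clear of 1, so smaller differences were not detectable. Adipocyte markers had a median log2 ratio of -0.01, with 3 of 6 higher and 3 of 6 lower beyond counting error.

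**Figure D1:**
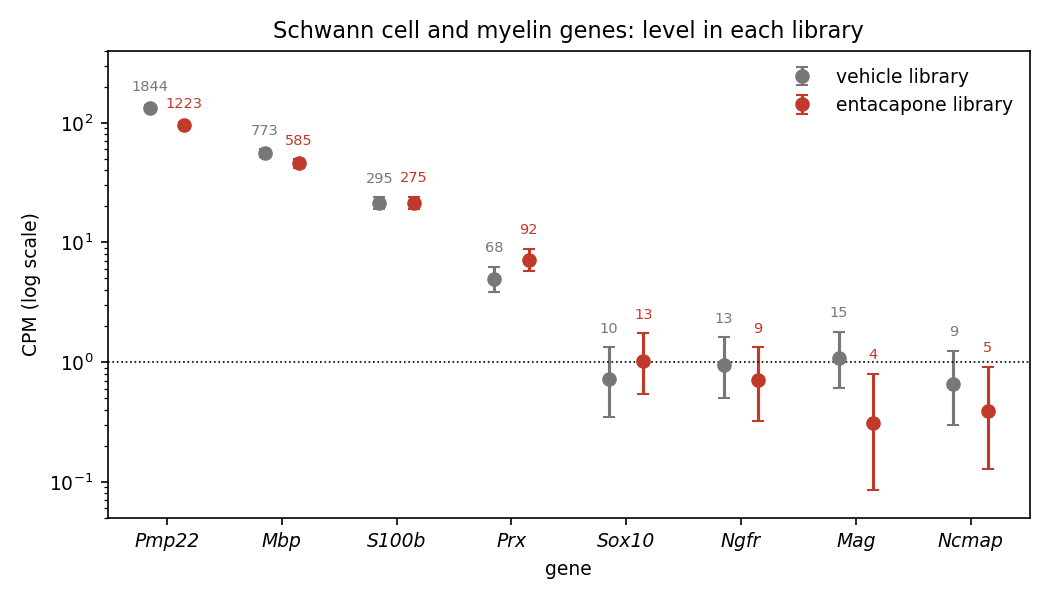
Level of each gene in CPM (log axis) in the vehicle library (grey) and the entacapone library (red), with exact 95% Poisson intervals and the read number above each point; the dotted line marks 1 CPM. The intervals of Pmp22 and Mbp do not overlap between libraries, S100b stands at 21.4 and 21.5 CPM, and the 4 genes at the right rest on 4 to 15 reads.

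The lineage factor Sox10 was present in both libraries at very low counts. It lies on chromosome 15 (79154908 to 79165240, minus strand) and had 10 vehicle reads (0.724 CPM, 0.347 to 1.33) and 13 entacapone reads (1.02 CPM, 0.541 to 1.74). The intervals overlapped over most of their width, and the log2 ratio was 0.49 (-0.82 to 1.84). At 10 vehicle reads, 21 or more entacapone reads (2.27-fold higher) or 1 or fewer (9.27-fold lower) would have been needed for an interval that excludes 1. Melanocytes also use Sox10. Of their 6 listed markers, the pigment genes had few reads: Dct had 19 vehicle and 18 entacapone reads, Pmel 18 and 14, Tyr 5 and 3, Mlana 1 and 7, and Tyrp1 0 in both libraries. Mitf, a transcription factor that many other cells make too, had 186 and 204 reads, and 0 of the 3 compared markers differed beyond counting error.

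Mag, the myelin-associated glycoprotein that contacts the axon, had the lowest ratio. It is on chromosome 7 (30899176 to 30914873, minus strand), with 15 vehicle reads (1.09 CPM, 0.608 to 1.79) and 4 entacapone reads (0.313 CPM, 0.0852 to 0.800). The vehicle value was 3.47 times the entacapone value, with an interval from 1.11 to 14.4 and overlapping intervals of the 2 levels. A count of 5 entacapone reads would have given an interval that holds 1, since 4 was the highest count that did not. Markers of oligodendrocytes, the other cell type that makes Mag, were near 0: Opalin and Olig2 had 0 reads in both libraries, and the 6 markers summed to 8 reads in each. The cell that made the few Mag reads was not measured.

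Ncmap and Ngfr were within counting error. Ncmap (chromosome 4, 135369576 to 135398227, minus strand) had 9 vehicle reads (0.652 CPM) and 5 entacapone reads (0.391 CPM), a log2 ratio of -0.74 (-2.66 to 0.99). Ngfr (chromosome 11, 95568818 to 95587735, minus strand) had 13 vehicle reads (0.941 CPM) and 9 entacapone reads (0.703 CPM), a log2 ratio of -0.42 (-1.83 to 0.92). For both genes the entacapone library had fewer reads, but only a difference of at least 2.40-fold upwards or 8.34-fold downwards for Ncmap, and 2.08-fold or 4.01-fold for Ngfr, could have been seen. Ngfr also marks stroma of lymph nodes, and markers of nodes and B cells were present in both libraries, at a summed 34.6 CPM with vehicle and 42.4 CPM with entacapone.

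**Figure D2:**
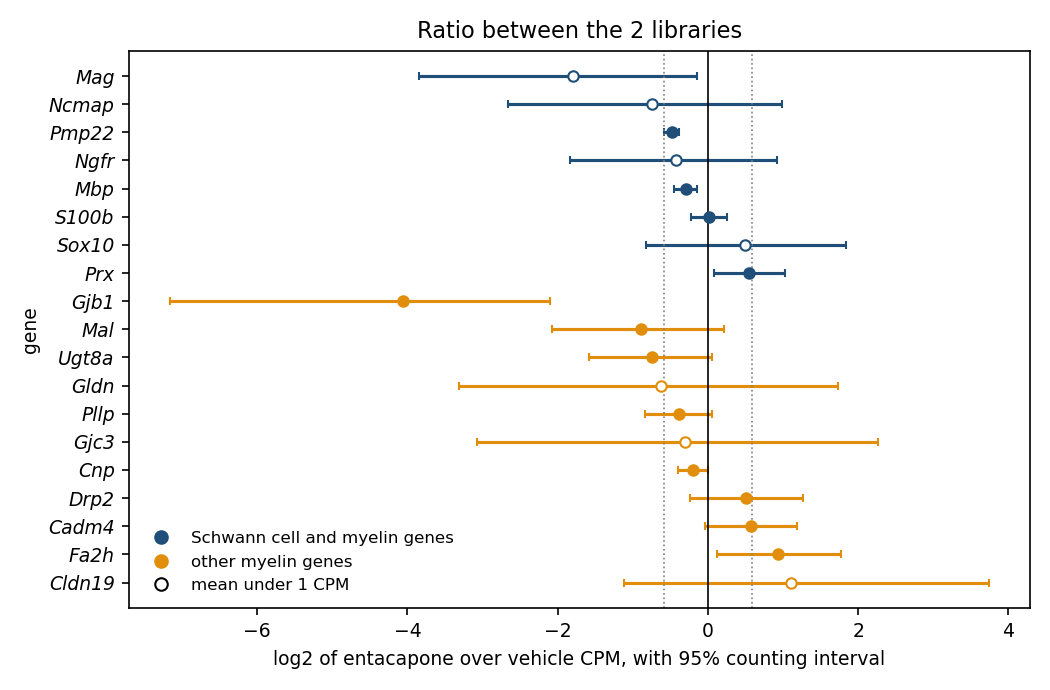
The log2 ratio of entacapone over vehicle CPM for the 8 Schwann cell and myelin genes (blue) and the other myelin genes with reads in both libraries (orange), with exact 95% counting intervals; open points are genes under a mean of 1 CPM and dotted lines mark 1.5-fold. Pmp22 and Mbp have narrow intervals under 0, Prx lies above 0 at 0.55, and Gjb1 stands farthest out at -4.06.

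The members spanned a wide range of levels. Scaled to exon length, the vehicle library held Pmp22 at 56.7 CPM per kb, S100b at 14.4, Mbp at 6.61 and Prx at 0.882. The entacapone library had the same order at the top, with 40.6, 14.5, 5.40 and 1.29 CPM per kb. In both libraries the intervals of neighbours among these 4 did not overlap. Sox10, Mag, Ncmap and Ngfr lay between 0.237 and 0.293 CPM per kb in the vehicle library and between 0.0768 and 0.333 in the entacapone library, and neighbours among them overlapped, so their order was not resolved. Exon lengths were the union over all annotated transcripts, which lowers the per-kb value of genes with many forms such as Mbp.

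Pmp22, Mbp and S100b together took 96.2% of the members' reads in the vehicle library and 94.4% in the entacapone library. The summed level of all 8 was 219 CPM against 172 CPM, a log2 ratio of -0.35 (-0.43 to -0.27), and this sum mostly repeats Pmp22. The other 5 members summed to 115 vehicle and 123 entacapone reads, a log2 ratio of 0.21 (-0.17 to 0.59). Without Prx, the 4 rarest summed to 47 and 31 reads (-0.49, -1.19 to 0.19). Neither of these smaller sums differed beyond counting error, and they lay on opposite sides of 0.

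**Figure D3:**
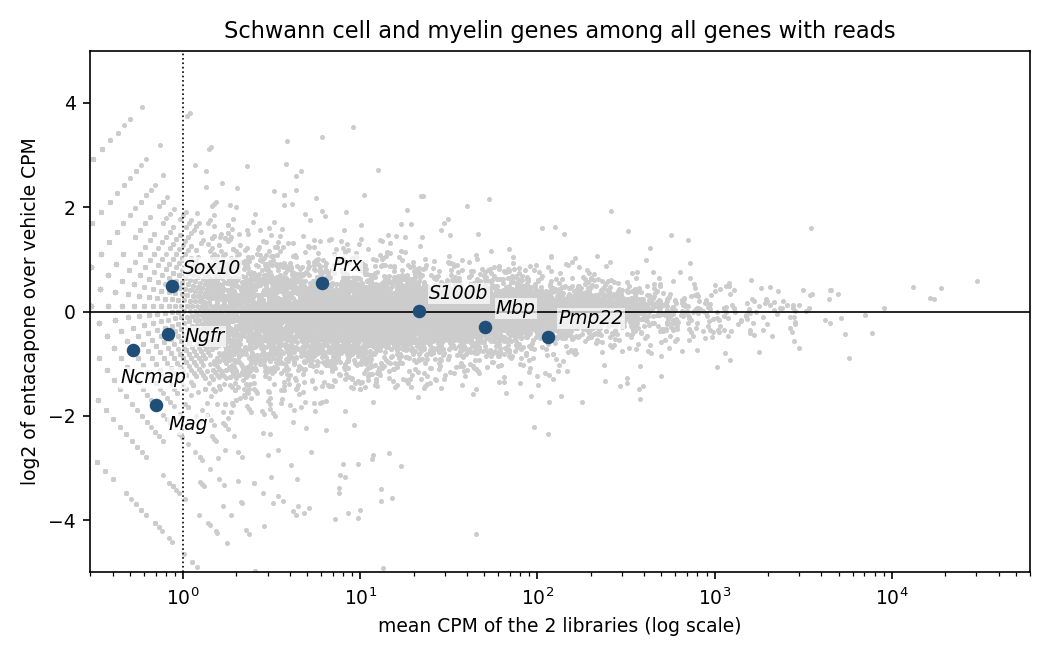
The log2 ratio of entacapone over vehicle CPM against the mean CPM (log axis) for genes with reads in both libraries and a mean of at least 0.3 CPM (grey), with the 8 Schwann cell and myelin genes in blue and named; 3 genes lie beyond the vertical axis. Pmp22 sits at the lower side of the cloud at its level, S100b at its centre and Prx at its upper side, and the dotted line marks 1 CPM.

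Other genes of the Schwann lineage were found in both libraries and had no common direction. Cdh19, a cadherin of the lineage, had 24 vehicle and 23 entacapone reads (log2 0.05, -0.84 to 0.94). Egr2, which drives myelination and is also an early response gene of many other cells, had 52 and 50 (log2 0.05, -0.54 to 0.64). Drp2 was 0.51 and Adgrg6 -0.53, both described with their pathways. These values do not measure how many Schwann cells a library held.

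Other genes of myelin structure, adhesion and lipid synthesis also went both ways. Of 13 listed, 8 passed the 1 CPM limit, of which 1 exceeded counting error upwards and 1 downwards. The median log2 ratio was -0.28, beside 0.00 over all compared genes. Fa2h, which makes the hydroxylated fatty acids of myelin lipids, was 0.93 (0.12 to 1.77) on 21 vehicle and 37 entacapone reads. Cadm4, an adhesion protein of Schwann cells, was next at 0.57 (-0.04 to 1.19), within counting error. Keratinocyte and epithelial markers summed to 20.1 CPM with vehicle and 56.3 CPM with entacapone, and their part in the Fa2h value was not tested. Gjb1, the connexin of non-compact myelin, was lowest at -4.06 (-7.16 to -2.10), on 36 vehicle and 2 entacapone reads. Gjb1 is also a main gap junction gene of hepatocytes, and all 6 hepatocyte markers were lower in the entacapone library beyond counting error, with a summed 78.3 CPM against 328 CPM; their part in the Gjb1 value was not tested. Mal, a proteolipid of myelin, was -0.89 (-2.08 to 0.22), within counting error. Cnp, with the most reads of this list (454 vehicle and 367 entacapone), was -0.20 (-0.40 to 0.00). Pllp was -0.39 (-0.84 to 0.05), Ugt8a -0.75 (-1.59 to 0.06) and Drp2 0.51 (-0.24 to 1.27), all within counting error. The central myelin genes Mog (0 and 1 reads) and Mobp (2 and 0) were nearly absent.

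Transcription factors of the Schwann lineage had a median log2 ratio of 0.06. Of 11 listed, 6 were compared, and 2 were higher and 2 lower beyond counting error. Tead1, a partner of YAP and TAZ that acts on myelin genes, was 0.53 (0.41 to 0.64) and Jun, which drives the repair state, 0.38 (0.27 to 0.49). Nab1, a cofactor of Egr2, was -0.31 (-0.49 to -0.13) and Zeb2 -0.17 (-0.25 to -0.09). These 4 are expressed in many cells of fat, at 36.0 to 217 CPM, whereas the more restricted Pou3f1 (1 and 3 reads), Sox2 (2 and 0), Pax3 (1 and 1) and Foxd3 (5 and 6) were near the limit of detection.

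The neuregulin pathway, by which axons control Schwann cell survival and myelin thickness, was represented by its receptors. Erbb3, the neuregulin receptor of Schwann cells, had 49 vehicle and 50 entacapone reads (log2 0.14, -0.46 to 0.74), and its partner Erbb2 was 0.30 (0.03 to 0.56). Adgrg6, the adhesion receptor required for myelination, was -0.53 (-1.06 to -0.01). The genes of proteases that can cut neuregulin were slightly lower, Bace1 at -0.28 (-0.46 to -0.09) and Adam17 at -0.22 (-0.41 to -0.03), while the phosphatase gene Ptpn11 was 0.19 (0.12 to 0.25). Bace1 stood at 40.7 CPM with vehicle and 33.6 CPM with entacapone, and Adam17 at 38.4 and 32.9 CPM. The cells that made these reads and the cutting of neuregulin were not measured. Nrg1 itself had 0 reads in both libraries, which allows up to 0.217 CPM with vehicle and 0.234 CPM with entacapone (3 counts, counting error only). Of the 7 compared genes, 2 exceeded counting error upwards and 3 downwards, and the median was -0.05.

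Ngfr acts with neurotrophins and with sortilin or Nogo receptor partners. Of 12 listed genes of this group, 10 were compared; 3 exceeded counting error upwards and 2 downwards, and the median log2 ratio was 0.19. Ntf3, a neurotrophin, had 24 vehicle and 25 entacapone reads (log2 0.17, -0.70 to 1.04). Bdnf, at 6.59 and 10 CPM, was 0.60 (0.20 to 1.01), and the receptor gene Ntrk3, at 6.30 and 9.92 CPM, was 0.66 (0.25 to 1.07). Sorcs2 (0.82, -0.34 to 2.05) and Lingo1 (0.74, -0.44 to 1.98) had the highest ratios, on 11 vehicle reads each and within counting error. Rtn4, which encodes Nogo and is made by most cells, was lowest at -0.37 (-0.42 to -0.32), followed by Bex3, a gene for a protein that binds p75, at -0.22 (-0.86 to 0.42).

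Periaxin binds Drp2 and, through it, dystroglycan in the Schwann cell membrane. Drp2 had 28 vehicle and 37 entacapone reads, a log2 ratio of 0.51 (-0.24 to 1.27), near that of Prx but within counting error. The widely expressed Dag1, which encodes dystroglycan, was -0.10 (-0.17 to -0.02). Among the laminins and integrins of the basal lamina, Lama2, the laminin chain whose loss impairs peripheral myelin, was lowest at -0.71 (-0.84 to -0.58), and Itga6 was -0.41 (-0.50 to -0.31). Lama2 stood at 100 CPM with vehicle and 61.3 CPM with entacapone, and the cells that made the Lama2 and Itga6 reads were not measured. Of 6 fibroblast and progenitor markers, 5 were lower in the entacapone library beyond counting error, and their part was not tested. Itgb4 was the other high member at 0.37 (0.01 to 0.73), and keratinocyte and epithelial markers, from cells that also make it, summed to 20.1 CPM with vehicle and 56.3 CPM with entacapone. In all, 1 of 11 genes exceeded counting error upwards and 6 downwards, beside 20.2% and 21.1% of all compared genes. With 3213 vehicle and 2787 entacapone reads, a ratio as small as that of Dag1 counted as lower. The median of the list was -0.06.

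Most genes of non-myelinating and repair Schwann cells had few reads or none. Of 11 listed, 9 had reads in at least 1 library and 4 passed the 1 CPM limit: Scn7a (0.16, 0.06 to 0.25), L1cam (0.36, -0.19 to 0.91), Cdh19 (0.05, -0.84 to 0.94) and the cadherin gene Cdh2 (-0.55, -0.96 to -0.14). Gfap and Shh had 0 reads in both libraries, and Gdnf and Artn, growth factors of the repair state, had 3 reads or fewer. Scn7a, a sodium channel of non-myelinating Schwann cells, stood apart in level: it had 1828 vehicle and 1887 entacapone reads, or 18.0 and 20.1 CPM per kb, against 0.406 and 0.420 for Cdh19. The cell that made the Scn7a reads was not measured.

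Relatives of Pmp22 and S100b were compared as the nearest families. Emp1, an epithelial membrane protein of the PMP22 family, had a log2 ratio of -0.37 (-0.44 to -0.31), Emp3 -0.16 (-0.38 to 0.05) and Emp2 0.13 (-0.13 to 0.39). Emp1 and Pmp22 were both lower beyond counting error, as were 21.1% of all compared genes, and Emp2 and Emp3 were not. Emp1 had 4278 vehicle and 3058 entacapone reads, against 246 and 250 for Emp2 and 393 and 325 for Emp3. Smaller differences could therefore exceed counting error for Emp1. Among the S100 genes and the S100 receptor gene Ager, 6 of 11 were higher and 3 lower beyond counting error. The shares over all compared genes were 20.2% and 21.1%. S100a14 (1.20, 0.30 to 2.15) and S100a1 (0.80, 0.68 to 0.93) were highest, and S100a3 (-1.14, -2.54 to 0.12) and S100a8 (-1.08, -1.55 to -0.62) lowest. S100a8 had 130 vehicle and 57 entacapone reads, and the cell that made them was not measured. S100a9, under 1 CPM and not compared, had 12 reads in each library (0.11, -1.17 to 1.39). Per length, S100b at 14.4 CPM per kb in the vehicle library was below S100a1 at 89.5 and S100a11 at 730.

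Axon transcripts, most of which stay in cell bodies outside the fat, were scarce. Of 14 listed genes, 2 passed 1 CPM: Uchl1, a ubiquitin hydrolase, at 94 vehicle and 53 entacapone reads (log2 -0.72, -1.23 to -0.22), and Stmn2 at 27 and 21 (-0.25, -1.15 to 0.62). Tubb3 had 8 and 3 reads, Nefl 3 and 2 and Calca 10 and 15, and the cell that made the Uchl1 reads was not measured. Th, the rate-limiting enzyme of catecholamine synthesis, had 0 and 1 reads, and 5 genes, among them Dbh and Npy, had 0 in both. Of the genes of the perineurial barrier, the sheath around nerve bundles, Cldn1 was 1.5 (0.54 to 2.54) and the glucose transporter Slc2a1 0.68 (0.40 to 0.97), while Tjp1 was 0.04 (-0.07 to 0.16). Cldn1 is also a keratinocyte gene, and 5 of 8 keratinocyte and epithelial markers were higher in the entacapone library beyond counting error; their part was not tested.

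**Figure D4:**
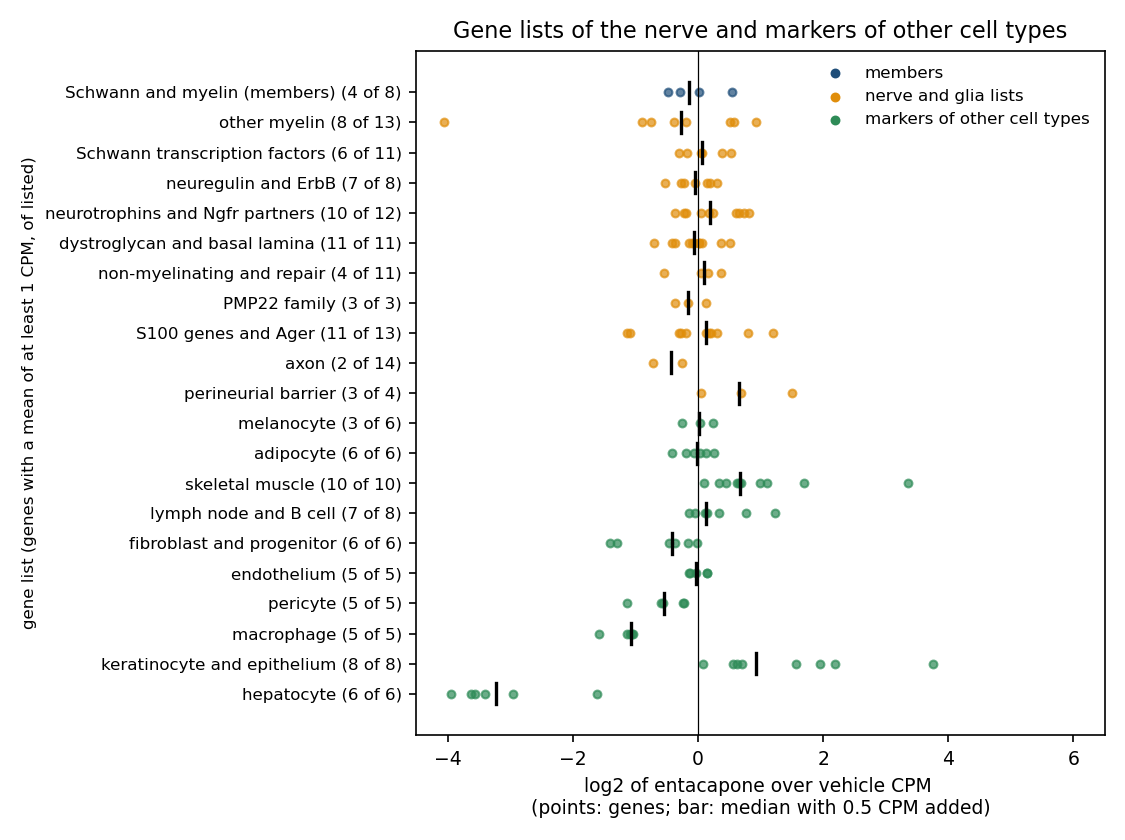
The log2 ratio of entacapone over vehicle CPM of each gene with a mean of at least 1 CPM (points) and the list median with 0.5 CPM added (bars), for the Schwann cell and myelin genes (blue), other gene lists of nerve and glia (orange) and markers of other cell types (green). The medians of the nerve lists lie between -0.43 and 0.66, and those of the marker lists between -3.23 (hepatocyte) and 0.93 (keratinocyte and epithelium).

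Markers of other tissues also differed between the libraries. Skeletal muscle markers were higher in 9 of 10 beyond counting error (median log2 ratio 0.67, summed 2026 against 1322 CPM). Muscle carries nerve branches with Schwann cells of its own, and the part of muscle in the members' values was not tested. Pericyte markers were lower in 5 of 5 (median -0.55). The members' own median over the 4 compared genes was -0.14. A likeness of patterns between genes has no meaning over 2 libraries, and none was computed.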

How the data were processed

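Poly(A) RNA-seq of inguinal white fat was available as 1 vehicle and 1 entacapone library. The deposited values are raw read counts per Ensembl gene; the submitters' processing notes list TopHat2 2.1.1, HTSeq 0.6.0 and the mm10 build, without roles, and the sources used here give neither counting mode nor annotation release. Per the labels' protocols the TruSeq v2 kit was used, which does not mark the strand. Symbols, positions and exon lengths came from GENCODE M21 (GRCm38, the same assembly as mm10), which named 35449 of the 37315 genes.

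CPM were computed with edgeR 4.0.16 TMM library sizes. With 1 library per group there is no test. Each ratio has an exact 95% interval, derived by the Clopper-Pearson method from the split of a gene's reads between the libraries (scipy 1.17.1), each level has an exact Poisson interval, and both cover counting error only. The comparison took the 13361 genes whose mean reached 1 CPM, and list medians used a pseudocount of 0.5 CPM. Counts for 13361 genes, with 200 changed 2-fold, were simulated from the Poisson model that the intervals assume, with no variation between mice. Of these intervals, 95.3% held the true ratio, a share near 95% that the model fixes in advance. The 1.5-fold call found 100% of raised and 91% of lowered genes and also called 107 unchanged genes. These rates do not cover differences between mice.

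The rule named all members and, of each other list, the 2 highest and 2 lowest compared genes; any further gene was chosen after its values were seen. The members and lists were chosen with earlier results of these data known, and some listed genes are not reported here and stay out of list counts and medians. Scaling by total counts, by the upper quartile or by DESeq2 1.42.0 was tried, as were other limits, other pseudocounts and the mean in place of the median.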

Additional observations from a re-analysis of the deposited data

How the results depend on the processing

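The 8 genes were recomputed with scaling by total counts, by the upper quartile and by DESeq2 size factors. The intervals of Pmp22, Mbp and Mag stayed under 0 and that of Prx above 0 under all 3, with Prx lowest at 0.51 (0.04 to 0.98) under total counts. S100b crossed 0, at -0.01 with DESeq2 size factors and -0.03 with total counts, always inside its interval. The median of the 8 genes was -0.27 with no limit on expression and -0.06 as a mean over the compared 4. With the mean in place of the median, the S100 list was at 0.01, adipocyte markers at -0.04, skeletal muscle at 0.94 and fibroblasts at -0.61. The perineurial median was 0.35 both without a limit and at 5 CPM, that of keratinocyte and epithelial markers 1.91 at 5 CPM, and that of hepatocyte markers -2.64 with a pseudocount of 2 CPM. A limit of 2-fold left 222 genes higher and 468 lower, and a limit of 5 CPM left 335 and 643, against 556 and 1056; stricter limits admit fewer genes by construction. A median counted as moved where it left the interval formed by the medians of its genes' bounds. Of 143 recomputed values, 131 stayed within their limits and 12 did not; those 12 are given above. No paired analysis was possible because each group holds 1 library. Depth limits the 4 genes under 1 CPM most. For an interval that excludes 1, Sox10 needed a difference of at least 2.27-fold upwards or 9.27-fold downwards. Ncmap needed at least 2.40-fold upwards or 8.34-fold downwards.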
